A study of Homo sapiens with 24 samples.

Results

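Ocoxin, a mixture of plant extracts, amino acids, minerals and vitamins, was given to BxPC-3 and HCC-70, and the response of each gene was compared between both cell lines. The comparison was made of 12 libraries out of the 24 of the series: 3 control and 3 Ocoxin libraries of BxPC-3, an established line of pancreatic adenocarcinoma (PAAD), and 3 control and 3 Ocoxin libraries of HCC-70, an established line of triple-negative breast cancer (TNBC). For every gene, the log2 fold change of Ocoxin over control in TNBC was subtracted from that in PAAD, over the 15333 of 58051 genes with enough counts in each line. Ocoxin was diluted 1:500 for PAAD and 1:700 for TNBC, which the study chose as the IC50 of each line, and the treatment lasted 48 h in medium with 1% serum after growth in 10%. The labels attach the dilution to the controls as well, so the letters C and O of the titles decided the group. Each cancer is represented by 1 line and the dilutions differ, so that cancer type, line and dose cannot be told apart. RNA was taken from the cells that still adhered, and in such bulk RNA fewer cells of a kind and less RNA per cell cannot be told apart.

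Cells under a chemical stress use a few well described programs. The integrated stress response (ISR) slows translation and, through the transcription factor ATF4, induces enzymes of amino acid synthesis and amino acid transporters, while NRF2 induces antioxidant genes and MTF1 induces the zinc-binding metallothioneins. ERK, the last kinase of the growth factor cascade, induces immediate early genes and its own inhibitors of the DUSP and SPRY families, NF-kB induces cytokines, and the hypoxia inducible factor HIF drives glycolysis.

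The libraries held 31101178 to 34231106 counts in PAAD and 36863490 to 39009959 in TNBC, and levels are given as CPM after TMM scaling. SMAD4 and CDKN2A, which BxPC-3 is known to lack, had 0 counts in the 6 PAAD libraries and 71.1 to 76.3 CPM and 254 to 319 CPM in TNBC. The progesterone receptor PGR had 0 counts in all 12 libraries, and ESR1 was at 5.45 to 8.01 CPM in TNBC and 0.421 to 1.07 CPM in PAAD. The 5 markers of basal-like breast carcinoma summed to 5350 to 6080 CPM in PAAD controls and 4360 to 5010 CPM with Ocoxin. In TNBC their sum was lower, 1950 to 2170 CPM in controls and 1800 to 1960 CPM with Ocoxin. Of these markers, KRT5 and KRT17 were higher in PAAD, while KRT14, GABRP and FOXC1 were higher in TNBC. The summed level of 6 epithelial markers, from EPCAM to KRT19, was 4250 to 4770 CPM in PAAD controls and 4130 to 4450 CPM with Ocoxin. In TNBC it was 4100 to 4240 CPM in controls and lower with Ocoxin, at 3270 to 3470 CPM. The 4 leukocyte markers summed to 6.14 to 9.41 CPM in PAAD and 104 to 136 CPM in TNBC. There CD14 carried the sum, and the defining PTPRC did not pass 0.189 CPM in any library. In TNBC the leukocyte sum was 130 to 136 CPM in controls and 104 to 118 CPM with Ocoxin, and its part in the results was not tested. Of 2 endothelial markers, PECAM1 stayed at 3.82 to 5.96 CPM in PAAD, whereas the sum of both, carried by CDH5, was 64.7 to 72.7 CPM in PAAD controls and 102 to 114 CPM with Ocoxin. The 4 fibroblast markers summed to 15.3 to 19.5 CPM in PAAD and 12.5 to 16.5 CPM in TNBC, nearly all of it COL1A1, while COL1A2 did not pass 0.198 CPM. Replicate 3 stood apart from replicates 1 and 2 in both lines, and among well expressed genes control and Ocoxin libraries with the same number deviated together. In TNBC, however, replicates 1 and 2 deviated together about as much across numbers as within them. A second fit with the replicate number as a block within each line is therefore given as "paired" beside the results whose calls or counts it moved most. Nothing in the labels says that replicates came from separate cultures, so the p-values measure the spread between these libraries, which may be technical.

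Ocoxin altered 1835 genes in PAAD, 12% of those tested, and 2894 in TNBC, 18.9%, by edgeR's quasi-likelihood test with Benjamini-Hochberg adjustment at 0.05. In PAAD 969 genes rose (6.32%) and 866 fell (5.65%), and in TNBC 1238 rose (8.07%) and 1656 fell (10.8%). The difference between both responses was called for 1050 genes, 6.85% of those tested: the log2 fold change was higher in PAAD for 678 of them (4.42%) and higher in TNBC for 372 (2.43%). Higher refers here and below to the signed value, so it can also stand for a larger decrease in the other line. In the paired fit, the counts were 4030 genes in PAAD (26.3%), 5254 in TNBC (34.3%) and 3046 for the difference (19.9%), with 1880 higher in PAAD (12.3%). These shares, not the unpaired ones, are the background for the paired counts of list members given below.

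Of the altered genes, 679 were called in both lines, 4.43% of those tested, which is 37% of the PAAD genes and 23.5% of the TNBC genes. Among these, 570 (3.72%) changed in the same direction, 235 up (1.53%) and 335 down (2.18%). The other 109 (0.711%) changed in opposite directions, 76 up in PAAD and down in TNBC (0.496%) and 33 the reverse (0.215%). In the paired fit 1622 genes (10.6%) changed in the same direction and 458 (2.99%) in opposite ones. Genes were called alike when they were altered in both lines in the same direction, their difference was not called and its 95% interval lay within 1.5-fold, and 495 genes met this (3.23%), 206 up (1.34%) and 289 down (1.88%). The paired fit gave 1306 (8.52%). The interval was not adjusted for the number of genes. Its margin, 0.585 on the log2 scale, exceeded the median absolute response of the 495 genes, 0.248 in PAAD and 0.252 in TNBC. Alike thus sets a bound on the difference and does not show equal responses. A further 39 genes moved in the same direction with sizes that differed, and in 36 the interval was too wide to decide. These 36 had larger responses than the alike genes, with median absolute values of 0.893 in PAAD and 0.851 in TNBC. Altered genes called in 1 line numbered 3371 of 4050, and the difference was called for 829 of them, that is 24.6%. For the remaining ones, a call in 1 line did not show that the other line responded differently. Over all genes tested, both log2 fold changes had the same sign for 60%, and their Pearson correlation across genes was 0.182, given as a description since genes are not independent. The lines share no library, and the share with the same sign was 71.7% for the genes called in PAAD and 71.6% for those called in TNBC.

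**Figure D1:**
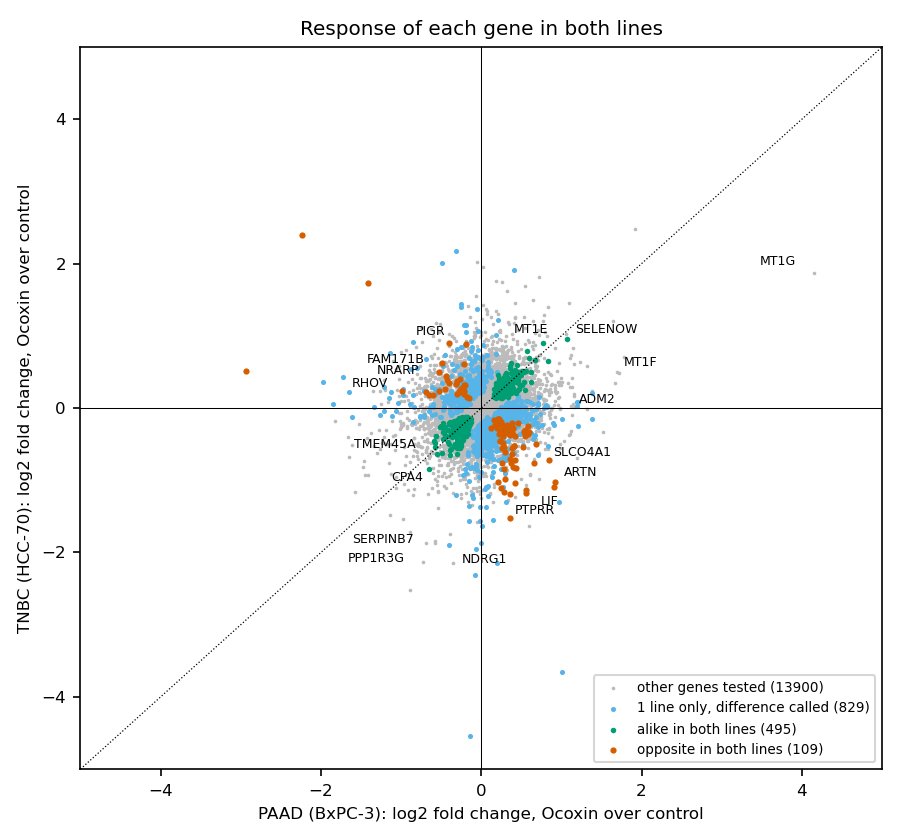
Log2 fold change (Ocoxin over control) in PAAD on the horizontal axis and in TNBC on the vertical axis for the 15333 genes, 1 point each; the dotted line marks equal responses. The 495 alike genes lie near the dotted line on either side of the centre, and the 109 opposite genes lie on the upper left and, mostly, the lower right.

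The alike genes named here were chosen among those whose control and Ocoxin libraries did not overlap in either line. The first by the smaller of both increases was SELENOW (ENSG00000178980), which encodes a small selenium-containing redox protein. Its level was 125, 119 and 112 CPM in PAAD controls and 254, 252 and 243 CPM with Ocoxin, and 77.5, 83.5 and 82.3 CPM in TNBC controls and 155, 159 and 156 CPM with Ocoxin. The lack of overlap in both lines was thus a condition of the choice. It held for 13.3% of all genes tested, against 28.1% in PAAD and 40.1% in TNBC taken alone. SELENOW rose by 1.07 ± 0.05 (SE, n = 3 against 3) in PAAD and by 0.95 ± 0.05 in TNBC on the log2 scale, and the interval of the difference ran from -0.03 to 0.27.

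The metallothionein MT1E followed, from 57.9-66.0 to 103-110 CPM in PAAD and from 17.4-19.9 to 33.3-38.6 CPM in TNBC, with log2 fold changes of 0.77 and 0.90. SLC7A11, the cystine importer that feeds glutathione synthesis, was at 196, 217 and 237 CPM in PAAD controls and at 341, 319 and 323 CPM with Ocoxin. In TNBC it was lower at the start, at 47.2, 43.7 and 41.7 CPM, and reached 69.5, 66.5 and 78.1 CPM, so that a 1.51-fold and a 1.61-fold increase stood on levels that differed. KIF21B, a kinesin motor, rose 1.77-fold in PAAD and 1.57-fold in TNBC. The antisense RNA CSRP1-AS1 had 1.29 to 1.76 CPM in PAAD controls and 2.02 to 3.10 CPM with Ocoxin, and its value is uncertain because counting did not use the strand.

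Larger shared decreases, such as that of EGLN3 given below, lay outside the margin and were not eligible. The alike decreases were led by CPA4 (ENSG00000128510), a secreted carboxypeptidase. It was measured at 44.7, 44.1 and 43.6 CPM in PAAD controls and 26.9, 29.0 and 28.4 CPM with Ocoxin, and at 50.9, 48.6 and 68.2 CPM in TNBC controls and 27.9, 29.5 and 36.4 CPM with Ocoxin. The third TNBC control was the highest, and the groups did not overlap, as the choice required. CPA4 fell to 0.637-fold in PAAD and 0.56-fold in TNBC. TMEM45A, a membrane protein, fell to 0.685-fold and 0.64-fold, VGLL1, a cofactor of TEAD factors, to 0.67-fold and 0.69-fold, LGALS1, which encodes galectin-1, to 0.714-fold and 0.647-fold, and EFNA3, an ephrin ligand, to 0.669-fold and 0.718-fold. In each of these the adjusted p of the difference was 0.499 or more.

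**Figure D2:**
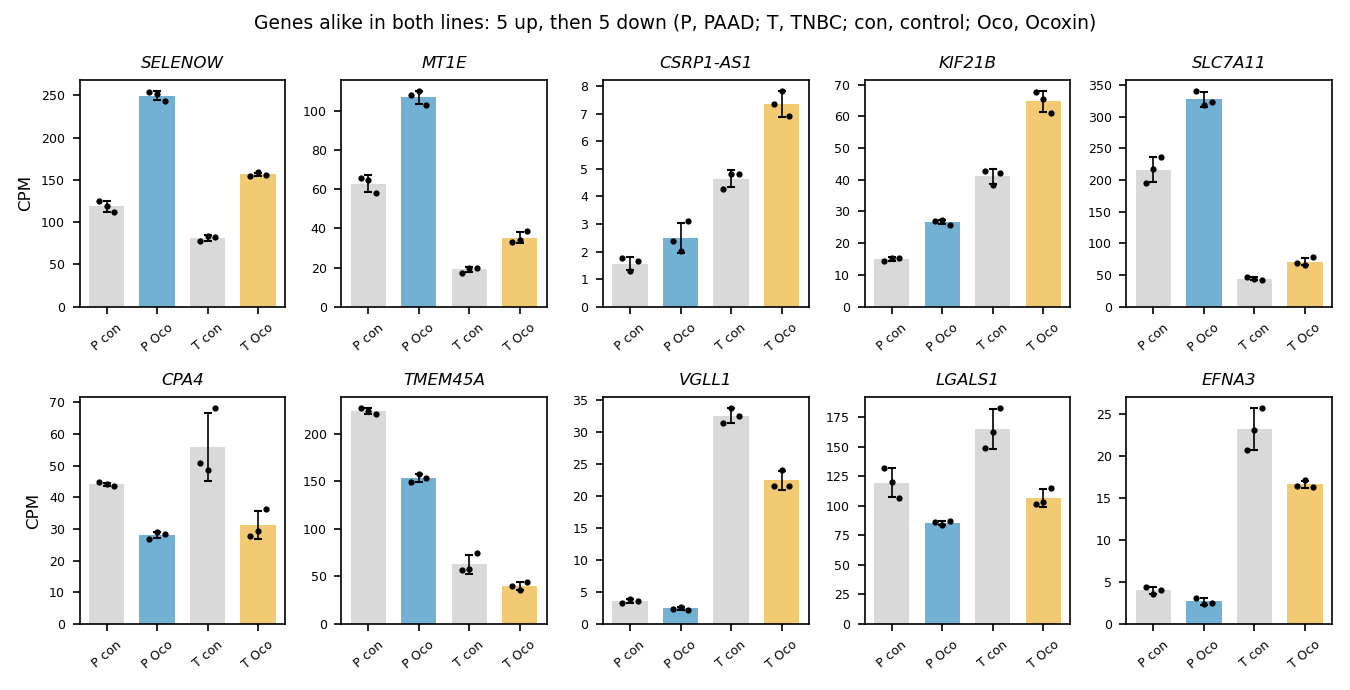
CPM of the 10 alike genes in the 12 libraries; bars are means, points are libraries and error bars are SD of 3 libraries. The genes were chosen among those without overlap, so in every panel the Ocoxin libraries lie above (upper row) or below (lower row) the controls in both lines. The level itself can differ between lines, as for VGLL1 with 3.27 to 3.96 CPM in PAAD controls and 31.4 to 33.7 CPM in TNBC controls.

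The promoters of the leading alike genes are printed as the 250 bases before the start (RefSeq, GRCh38.p14), since the data bear on genes that move together. Letters in capitals match the ATF4-CEBP composite site TGATGNAA, the antioxidant response element TGACNNNGC, the metal response element (TGCACNC or TGCGCNC), the core GCGTG of the aryl hydrocarbon receptor, the hypoxia core ACGTG or the AP-1 site TGANTCA, on either strand.
SELENOW, chr19:47778453-47778702, plus strand: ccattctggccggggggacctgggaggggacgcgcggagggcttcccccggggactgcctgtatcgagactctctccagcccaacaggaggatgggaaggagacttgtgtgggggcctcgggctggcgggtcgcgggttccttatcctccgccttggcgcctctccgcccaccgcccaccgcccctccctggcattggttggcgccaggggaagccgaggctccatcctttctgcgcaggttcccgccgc
CPA4, chr7:130292911-130293160, plus strand: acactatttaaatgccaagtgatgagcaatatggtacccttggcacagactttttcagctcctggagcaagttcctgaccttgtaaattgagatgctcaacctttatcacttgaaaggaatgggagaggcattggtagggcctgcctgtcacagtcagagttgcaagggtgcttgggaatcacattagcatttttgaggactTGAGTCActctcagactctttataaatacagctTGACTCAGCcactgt
SELENOW had none of these letters in the window, and CPA4 had 3 matches: the AP-1 letters 48 and 15 bases before the start, the latter overlapping the antioxidant letters. The AP-1 letters were found in 7.47% of 308 windows of the alike genes that fell, 2.76% of 254 windows of those that rose and 4.63% of the 15472 windows of all genes tested, of which 10691 matched the table. The ATF4-CEBP letters were found in 3.15%, 1.3% and 1.67% in the order rising, falling and all.

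Among opposite genes with at least 1 CPM in each line, the first by the size of the difference was LIF (ENSG00000128342), a cytokine of the interleukin-6 family. It had 48.1, 58.3 and 52.1 CPM in PAAD controls and 94.0, 98.4 and 104 CPM with Ocoxin, against 16.4, 15.8 and 12.9 CPM in TNBC controls and 7.20, 7.65 and 6.44 CPM with Ocoxin. The groups did not overlap in either line: LIF rose 1.87-fold in PAAD and fell to 0.471-fold in TNBC. The log2 difference was 1.99 ± 0.13 (SE), with a 95% interval of 1.71 to 2.27 and an adjusted p of 4.26e-08. ARTN, which encodes the neurotrophic ligand artemin, went from 10.0, 10.1 and 9.23 to 18, 18.7 and 19 CPM in PAAD and from 4.20, 3.92 and 5.04 to 2.06, 1.66 and 2.73 CPM in TNBC, a log2 difference of 1.95 ± 0.20. PTPRR, a phosphatase that acts on ERK, rose from 9.69-9.95 to 11.4-14 CPM in PAAD and fell from 1.95-2.07 to 0.562-0.896 CPM in TNBC, and SLCO4A1, an organic anion transporter, rose 1.8-fold and fell to 0.606-fold.

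In the other direction, RHOV (ENSG00000104140), a small GTPase, had 57.1, 51.3 and 48.8 CPM in PAAD controls and 28, 25.0 and 25.9 CPM with Ocoxin. In TNBC it was more abundant, with 237, 234 and 218 CPM in controls and 275, 269 and 268 CPM with Ocoxin. It fell to 0.502-fold in PAAD and rose 1.18-fold in TNBC, for a log2 difference of -1.23 ± 0.08. FAM171B, a membrane protein, fell to 0.714-fold and rose 1.54-fold, and NRARP, a target and inhibitor of Notch signalling, fell from 37.2-45 to 26.8-31.0 CPM in PAAD and rose from 53.9-67.7 to 85.0-91.9 CPM in TNBC. PIGR (ENSG00000162896), the receptor that carries IgA across epithelia, gave the largest log2 difference of this kind among genes with at least 1 CPM in each line, -1.30 ± 0.24, but at a mean of 1.03 CPM in TNBC controls. Its PAAD libraries overlapped, with 31.6, 23 and 27.1 CPM in controls and 23.4, 17.9 and 20.8 CPM with Ocoxin, and its TNBC libraries did not, with 0.922, 0.986 and 1.17 against 1.80, 2.21 and 1.74 CPM.
The promoter of PIGR had 1 match, the aryl hydrocarbon receptor core on the opposite strand, which 42.9% of all windows hold.
PIGR, chr1:206946467-206946716, minus strand: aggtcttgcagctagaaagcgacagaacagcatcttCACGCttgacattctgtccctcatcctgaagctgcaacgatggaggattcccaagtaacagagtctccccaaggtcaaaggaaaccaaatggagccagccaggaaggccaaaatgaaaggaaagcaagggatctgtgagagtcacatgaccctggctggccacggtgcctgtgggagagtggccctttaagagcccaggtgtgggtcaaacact

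**Figure D3:**
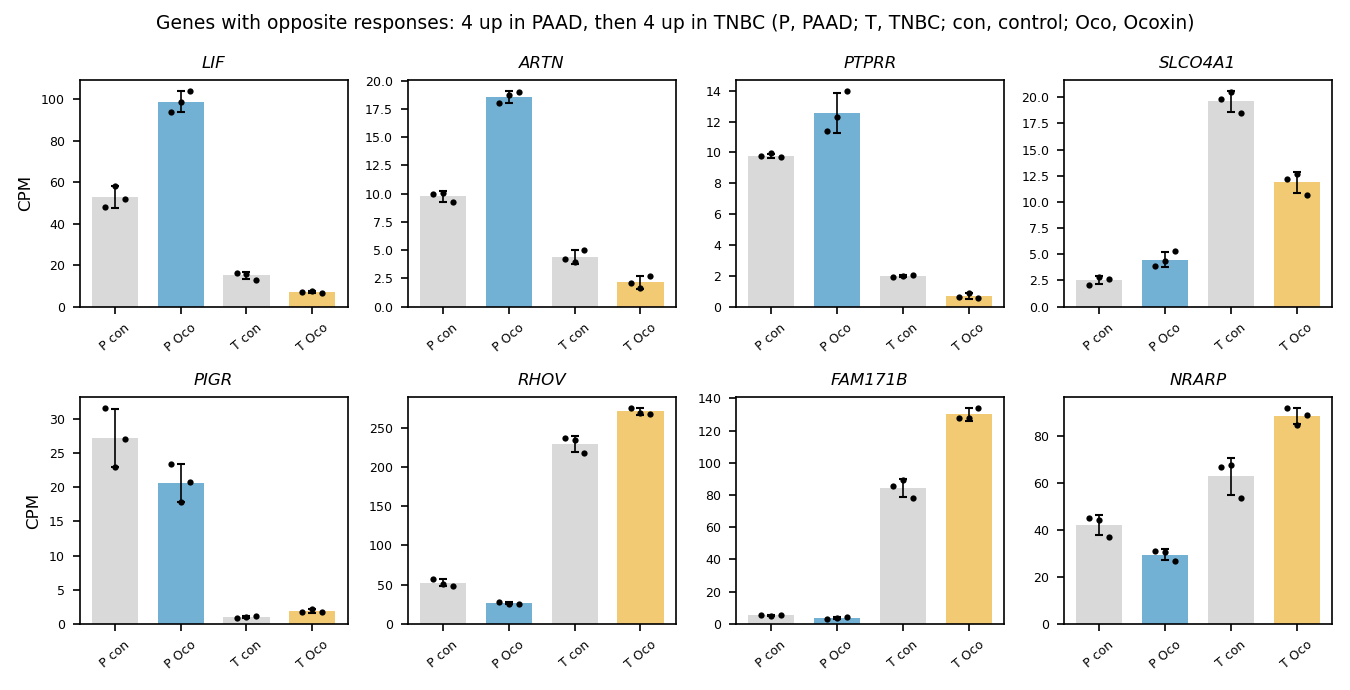
CPM in the 12 libraries of the 8 genes with the largest opposite responses among those with at least 1 CPM in each line; bars are means, points are libraries and error bars are SD of 3 libraries. In the upper row the Ocoxin libraries lie above the controls in PAAD and below them in TNBC, and in the lower row the reverse holds, with overlap in PAAD for PIGR.

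Genes that moved in the same direction with different sizes were led by the metallothionein MT1G. MT1G had 0.449, 0.791 and 0.617 CPM in PAAD controls and 9.01, 10.5 and 13.4 CPM with Ocoxin, and 8.76, 9.60 and 8.12 CPM in TNBC controls and 35.7, 27.7 and 33.1 CPM with Ocoxin. The increase was 17.7-fold in PAAD and 3.64-fold in TNBC, yet the level with Ocoxin remained higher in TNBC. MT1F rose 3.24-fold and 1.41-fold, and ADM2, a peptide hormone gene, 2.2-fold and 1.23-fold. Counts of metallothioneins are uncertain, as primary alignments of reads shared by near-identical copies were counted. The larger response was that of TNBC for NDRG1, a stress-responsive gene known for its induction in hypoxia, which went from 193, 178 and 171 to 137, 136 and 153 CPM in PAAD and from 259, 263 and 290 to 60.8, 56.8 and 65.2 CPM in TNBC. It fell to 0.786-fold and 0.225-fold, with a log2 difference of 1.80 ± 0.09. PPP1R3G, a regulatory subunit that promotes glycogen synthesis, fell to 0.604-fold and 0.227-fold, and SERPINB7, a serine protease inhibitor, to 0.671-fold and 0.275-fold, both from 1.01 to 2 CPM in TNBC controls. Without TNBC Ocoxin replicate 2, the difference of PPP1R3G was no longer called (edgeR adjusted p = 0.0528).

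Further genes were called in 1 line and for the difference. In PAAD, CLDN8, a tight junction claudin, fell from 6.47, 5.73 and 6.08 to 1.53, 1.77 and 1.74 CPM, while TNBC stayed at 43.8-46.5 and 45-49.9 CPM. VSNL1, a calcium sensor, fell to 0.32-fold in PAAD and had a 1.17-fold value in TNBC, where it was called a rise in the paired fit. HLA-F had 2.01-2.37 and 5.05-6.24 CPM in PAAD, while its TNBC controls ran from 2.36 to 6.53 CPM. Its difference (1.52 ± 0.39) was lost in 12 of 23 alternatives, and reads shared with other HLA genes make it uncertain.

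In TNBC, CYP1A1, the classic target of the aryl hydrocarbon receptor, rose from 76.0, 69.2 and 71.9 to 300, 249 and 328 CPM, 4.03-fold. In PAAD CYP1A1 had 6.09, 9.62 and 9.78 CPM in controls and 4.94, 5.24 and 7.85 CPM with Ocoxin, overlapping groups that the paired fit called a decrease. ZMYND12 rose in TNBC from at most 0.717 to at least 1.16 CPM, with a difference lost in 10 of 23 alternatives. TCF19, a cell cycle transcription factor, had 7.68, 7 and 6.82 CPM in TNBC controls and 0.529, 0.817 and 0.358 CPM with Ocoxin, 0.0795-fold. In PAAD TCF19 had 1.54, 1.52 and 0.185 CPM in controls and 2, 2.27 and 2.17 CPM with Ocoxin. BNIP3, a mitophagy receptor induced by HIF, fell from 7.66, 6.22 and 11.9 to 2.12, 1.66 and 2.07 CPM in TNBC and lay between 1.75 and 2.31 CPM in the 6 PAAD libraries.

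Many ISR and ATF4 targets rose in PAAD and fewer in TNBC. Of 37 members tested, 28 rose and 0 fell in PAAD, against 6.32% of all genes that rose there, and 18 rose and 2 fell in TNBC, where 8.07% of all genes rose. The difference was called for 17 members, 45.9% against a background of 6.85%, with all 17 higher in PAAD (paired, 24). The median log2 fold change was 0.38 in PAAD and 0.17 in TNBC, and over all genes it was 0.00313 and -0.00442. By size the difference was largest for ALDH1L2, 1.23, with log2 fold changes of 1.72 in PAAD and 0.48 in TNBC. Enzymes of asparagine and serine synthesis had the smallest p-values of the difference in this list. ASNS, asparagine synthetase, went from a mean of 28 to 64.3 CPM in PAAD and from 373 to 380 CPM in TNBC, and PSAT1 and PHGDH of the serine pathway from 60.4 to 138 CPM and from 83.8 to 148 CPM in PAAD, and from 491 to 522 CPM and from 940 to 959 CPM in TNBC. Their log2 differences were 1.17, 1.11 and 0.79. The TNBC controls thus already held more of the 3 transcripts than PAAD did with Ocoxin. CHAC1, which degrades glutathione, rose 2.6-fold in PAAD and had a value of 1.15-fold in TNBC, where the paired fit called it (adjusted p = 0.00385), and TRIB3, a pseudokinase that restrains ATF4, rose in both lines, by 0.87 and 0.32. SESN2, an inhibitor of mTORC1, was alike, with increases of 0.41 and 0.49, as was SLC7A11. ATF4 itself rose by 0.19 in PAAD and had -0.05 in TNBC.

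ASNS and CHAC1 are shown because their windows hold the ATF4-CEBP letters, 68 and 209 bases before the start, with other matches in capitals as above; of 2 starts of ASNS, the one with the letters is printed. Both were chosen after their values were seen.
ASNS, chr7:97872409-97872658, minus strand: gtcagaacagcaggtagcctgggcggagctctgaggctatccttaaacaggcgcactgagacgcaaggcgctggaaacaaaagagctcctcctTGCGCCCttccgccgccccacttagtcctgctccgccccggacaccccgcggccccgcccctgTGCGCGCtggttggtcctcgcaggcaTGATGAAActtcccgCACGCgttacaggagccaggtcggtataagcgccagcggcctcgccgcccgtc
CHAC1, chr15:40953221-40953470, plus strand: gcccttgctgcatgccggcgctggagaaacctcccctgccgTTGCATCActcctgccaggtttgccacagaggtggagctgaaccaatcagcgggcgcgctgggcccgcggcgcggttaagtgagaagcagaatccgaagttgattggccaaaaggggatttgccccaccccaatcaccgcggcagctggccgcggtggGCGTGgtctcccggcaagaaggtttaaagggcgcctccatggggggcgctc
The letters were found in 5 of 45 windows of the list (11.1%) and 1.67% of all windows.

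The ERK output and feedback genes that passed the test rose in PAAD and mostly fell in TNBC. Of 18 members, 9 rose and 0 fell in PAAD, and 2 rose and 5 fell in TNBC (paired, 12 rose and 2 fell in PAAD). Among all genes, 6.32% rose and 5.65% fell in PAAD, 8.07% rose and 10.8% fell in TNBC and 6.85% differed. The difference was called for 10 members (55.6%), 9 of them higher in PAAD, and 5 members were opposite (paired, 7) against 0.711% of all genes. The median log2 fold change was 0.24 in PAAD and -0.23 in TNBC, with the same signs under every alternative. FOS, an immediate early AP-1 subunit, went from a mean of 48.0 to 56.6 CPM in PAAD and from 31.9 to 23.3 CPM in TNBC, log2 0.24 ± 0.06 and -0.45 ± 0.07. FOSL1, another AP-1 subunit, had 0.35 ± 0.10 and -0.70 ± 0.16. The phosphatase gene DUSP5 had 0.39 and -0.28, the receptor EPHA2 0.25 and -0.30, and the inhibitor SPRY2 0.25 and -0.23, each called in both lines. DUSP4 rose from 376 to 592 CPM in PAAD, whereas its TNBC level was only 2.83 CPM in controls and 2.44 CPM with Ocoxin, too low for a firm value. The exceptions were MYC, which was alike with increases of 0.33 and 0.28, and CCND1, the cyclin D1 gene, which rose by 0.35 in TNBC and had -0.09 in PAAD, which the paired fit called a decrease. LIF and PTPRR, both described above, are not in this list and were chosen for their opposite responses, so they add nothing to its counts. PLAUR, the urokinase receptor, was named from the matrix list because its difference was called. It was opposite too, from 71.3 to 87.8 CPM in PAAD and from 32.8 to 16.6 CPM in TNBC.

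The hypoxia and glycolysis genes fell in TNBC and to a lesser extent in PAAD. Of 35 members, 30 fell and 0 rose in TNBC, where 10.8% of all genes fell, while 13 fell and 1 rose in PAAD, where 5.65% did. The difference was called for 16 (45.7%), all with the higher value in PAAD (paired, 24 of 25), and 5 were alike (paired, 3). Medians were -0.41 in TNBC and -0.13 in PAAD. SLC16A3, the lactate exporter, fell from 32.5 to 14.9 CPM in TNBC (-1.13) and was at 150 and 155 CPM in PAAD (0.04). ADM, the adrenomedullin gene, fell from 4.61 to 1.55 CPM in TNBC (-1.57) and was at 31.3 and 31.1 CPM in PAAD (-0.01). LDHA, lactate dehydrogenase A, fell in both lines with sizes that differed, by 0.37 in PAAD and by 0.84 in TNBC. The oxygen sensor EGLN3 fell in both, by 1.14 and 1.47, with a difference not called. ERO1A, an oxidase of the endoplasmic reticulum, and PGAM1, a glycolytic mutase, were alike, with -0.27 and -0.37 for ERO1A and -0.27 and -0.47 for PGAM1, although the paired fit called the difference of PGAM1 (adjusted p = 0.0224). VEGFA, the angiogenic factor, was the member that rose in PAAD, by 0.39, and had -0.12 in TNBC, where the paired fit called a decrease.

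**Figure D4:**
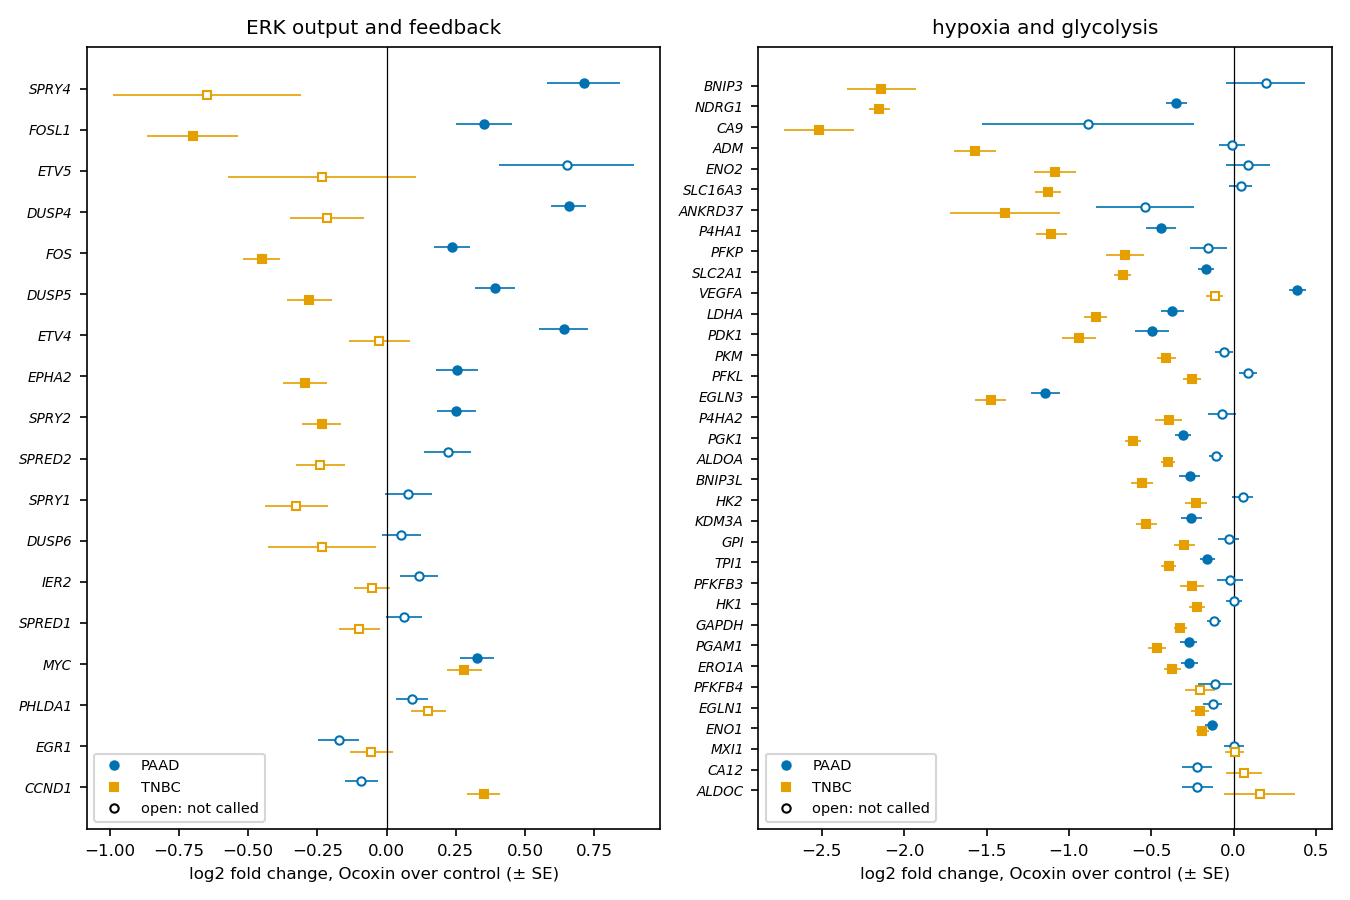
Log2 fold change of Ocoxin over control, with SE, for the 18 ERK and the 35 hypoxia and glycolysis members tested, in PAAD (circles) and TNBC (squares); filled symbols passed the test and members are ordered by the difference. In the left panel most circles lie right and most squares left of 0, and in the right panel the squares lie left of the circles for 32 of 35 members.

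NF-kB cytokines and feedback inhibitors fell in TNBC and, LIF apart, were not called in PAAD. Of 13 members tested, 7 fell in TNBC and 1 rose in PAAD, and the difference was called for 6 (46.2%), all higher in PAAD (paired, 9, with 3 rises and 2 decreases in PAAD). For all genes the shares were 10.8% falling and 8.07% rising in TNBC, 5.65% falling and 6.32% rising in PAAD, and 6.85% differing. CXCL8 and CXCL1, chemokines that attract neutrophils, were at means of 113 and 107 CPM and of 105 and 100 CPM in PAAD controls and Ocoxin libraries. In TNBC they fell from 6.99 to 1.41 CPM and from 5.24 to 1.36 CPM, log2 -2.31 and -1.95. NFKBIA and TNFAIP3, feedback inhibitors of the pathway, had -0.05 and -0.00 in PAAD and fell by 0.43 and 0.59 in TNBC. Of 19 matrix and mesenchymal genes, 8 fell and 1 rose in TNBC, 3 fell and 1 rose in PAAD, and 7 differed (36.8%), 5 with the higher value in PAAD and 2 in TNBC. Paired, 13 differed, 8 and 5, with 6 decreases and 2 rises in PAAD. TGFBI, an extracellular matrix protein, fell from 512 to 326 CPM in TNBC and was at 428 and 414 CPM in PAAD, and ITGA5, the fibronectin receptor subunit, fell by 0.33 in TNBC and had 0.02 in PAAD. The median difference of this list, 0.10, became negative without any of 4 libraries, PAAD Ocoxin replicate 2 or TNBC control replicate 2 or 3 or TNBC Ocoxin replicate 2, with a lowest value of -0.0643.

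Of 29 NRF2 targets, 15 rose and 0 fell in PAAD, where 6.32% of all genes rose, and 13 rose and 2 fell in TNBC, where 8.07% did, with medians of 0.22 and 0.14. The difference was called for 5 (17.2%), 2 higher in PAAD and 3 in TNBC (paired, 14), and 5 were alike (paired, 8). OSGIN1, a regulator of growth and apoptosis, rose by 0.76 in PAAD and had -0.23 in TNBC. AKR1C3, an aldo-keto reductase, rose by 0.53 in TNBC and had 0.11 in PAAD, and EPHX1, the microsomal epoxide hydrolase, rose by 0.43 in TNBC and had -0.02 in PAAD. AKR1C2 rose in both lines, by 0.37 and 0.62, with a difference called in the paired fit (adjusted p = 0.00115). HMOX1, heme oxygenase, rose from 2.52 to 4.07 CPM in PAAD and was at 28 and 34.7 CPM in TNBC, called there in the paired fit.

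Of 9 metal response genes, 8 rose and 1 fell in PAAD and 6 rose and 1 fell in TNBC, with medians of 0.60 and 0.50, and 4 differed (44.4%, 3 higher in PAAD). Among all genes, 6.32% rose and 5.65% fell in PAAD, 8.07% rose and 10.8% fell in TNBC and 6.85% differed. Apart from MT1G and MT1F, SLC39A10, a zinc importer, differed: it fell from 33.7 to 12.2 CPM in PAAD and from 18.9 to 10.8 CPM in TNBC. SLC30A1, the zinc exporter, rose by 0.36 and 0.55 and was alike, with a difference called in the paired fit (adjusted p = 0.0175). The aryl hydrocarbon receptor list held 8 genes, of which 3 rose and 1 fell in PAAD and 4 rose in TNBC, and 4 differed, 3 of them higher in TNBC (paired, 2 decreases in PAAD and 2 opposite). The receptor gene AHR fell by 0.16 in PAAD and had 0.14 in TNBC, called a rise in the paired fit, and TIPARP, a target that inhibits the receptor, rose by 0.26 in PAAD and had -0.05 in TNBC. CYP1B1, another target, rose in both lines, by 0.72 and 1.01, with an interval of the difference that just exceeded the 1.5-fold margin, reaching -0.60 where the margin is 0.585, and the paired fit called its difference (adjusted p = 0.0279).

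Sterol and fatty acid synthesis genes that passed the test mostly fell: of 33, 8 fell and 1 rose in PAAD, 10 fell and 1 rose in TNBC, and 4 differed (12.1%). In the paired fit 12 fell and 4 rose in PAAD, 17 fell and 3 rose in TNBC, 13 differed and 7 were alike, against 4. Without pairing, 5.65% of all genes fell and 6.32% rose in PAAD, 10.8% fell and 8.07% rose in TNBC and 6.85% differed. Paired, 19.9% of all genes differed and 8.52% were alike. HMGCS1, which makes HMG-CoA for the mevalonate pathway, fell from 691 to 463 CPM in PAAD and was at 188 and 177 CPM in TNBC, and SQLE, squalene epoxidase, fell by 0.38 in PAAD and had -0.09 in TNBC. IDI1 and MSMO1 of the same pathway were alike, with decreases of 0.23 and 0.30 for IDI1 and of 0.34 and 0.19 for MSMO1, whose difference the paired fit called (adjusted p = 0.0157). The 24 ER chaperones and ERAD genes had 8 decreases and 3 increases in PAAD and 9 and 3 in TNBC, and 2 differed (8.33%; paired, 8). SEL1L, a scaffold of ERAD, rose by 0.28 in TNBC and had -0.05 in PAAD, and P4HB, a disulfide isomerase, fell by 0.14 in TNBC and had 0.07 in PAAD, a difference lost in 16 of 23 alternatives. MANF, a secreted ER factor, fell by 0.31 and 0.54, with a difference called in the paired fit (adjusted p = 0.0113), and SDF2L1 by 0.42 and 0.31.

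Of 20 cytosolic heat shock genes, 11 fell in TNBC and 1 fell in PAAD, and 3 differed (15%). In the paired fit 14 fell and 2 rose in TNBC, 5 fell and 3 rose in PAAD, 13 differed and 4 were alike, against 0. Unpaired shares of all genes were 10.8% falling in TNBC, 5.65% falling and 6.32% rising in PAAD, and 6.85% differing. Paired shares were 19.9% differing and 8.52% alike. HSPA8, the constitutive HSP70, fell by 0.23 in TNBC and had -0.02 in PAAD, DNAJB6 fell by 0.30 and had -0.06, and HSPB8 fell by 0.65 and had 0.28. Squamous differentiation genes that passed the test mostly fell: of 14 tested, 6 fell and 2 rose in PAAD and 4 fell in TNBC (paired, 8), and 5 differed (35.7%). KRT4, a keratin of stratified mucosa, fell from 224 to 73.2 CPM in PAAD and was at 912 and 839 CPM in TNBC, and KRT16 fell from 5.06 to 3.08 CPM in PAAD and was at 940 and 860 CPM in TNBC. S100A9, a calcium-binding inflammatory protein, fell from 144 to 75.4 CPM in TNBC and was at 126 and 108 CPM in PAAD. PI3, the elastase inhibitor elafin, was alike, with -0.39 and -0.58.

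Genes of the respiratory chain and of the ribosome that passed the test fell, apart from RPL36A. Of 74 subunits of the respiratory chain and ATP synthase, 17 fell in PAAD and 37 in TNBC with 0 increases, 2 differed (2.7%) and 14 were alike. Paired, 36 fell and 1 rose in PAAD, 47 fell and 1 rose in TNBC, 9 differed and 28 were alike. Without pairing, 5.65% of all genes fell in PAAD and 10.8% in TNBC, 6.85% differed and 3.23% were alike. With pairing, 19.9% of all genes differed and 8.52% were alike. COX7A2, a cytochrome oxidase subunit, fell by 0.25 and 0.56, and COX8A had 0.04 in PAAD and fell by 0.26 in TNBC. ATP5F1C and ATP5MG of the ATP synthase were alike, ATP5F1C with -0.27 and -0.22 and ATP5MG with -0.22 and -0.31. Of 79 cytosolic ribosomal proteins, 22 fell in PAAD and 20 in TNBC, 7 were alike and 1 differed, with medians of -0.14 and -0.13. Paired, 62 fell in PAAD and 56 in TNBC, 49 were alike and 5 differed. RPL34 fell by 0.22 and 0.30 and RPS3A by 0.35 and 0.21, while RPL36A, which shares its sequence with close copies and is uncertain, rose from 2.72 to 4.74 CPM in TNBC. These transcripts are short, and the median response was lower in short genes: it was -0.06 in PAAD and -0.09 in TNBC among the 3067 shortest genes and 0.03 and 0.06 among the 3067 longest. Length was not tested as a cause of the decreases in both lists.

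The counts of cell cycle genes stand beside 12% of all genes called in PAAD and 18.9% in TNBC. Paired counts stand beside 26.3% in PAAD, 34.3% in TNBC and 19.9% for the difference. Of 45 S phase genes, 2 rose and 3 fell in PAAD, 5 rose and 1 fell in TNBC and 2 differed, and of 56 G2/M genes, 1 rose and 7 fell in PAAD, 2 rose and 5 fell in TNBC and 0 differed, where 6.85% of all genes did. Paired, 8 S phase genes rose and 6 fell in PAAD, 10 rose and 8 fell in TNBC and 7 differed, and 5 G2/M genes rose and 18 fell in PAAD, 11 rose and 11 fell in TNBC and 16 differed. GMNN, the licensing inhibitor geminin, rose by 0.34 in TNBC and had -0.12 in PAAD, and CDC6, a licensing factor, rose by 0.21 in PAAD and had -0.08 in TNBC. RAD54L of homologous recombination was alike, up by 0.24 and 0.19, as were ESPL1, the separase gene, up by 0.34 and 0.26, and JPT1, down by 0.26 and 0.27. Among 41 interferon-stimulated genes, 0 were called in PAAD, 2 rose and 4 fell in TNBC and 1 differed, the exonuclease gene ISG20, with 0.17 in PAAD and a decrease of 0.35 in TNBC (paired, 3 rose and 9 fell in PAAD, 8 rose and 11 fell in TNBC and 11 differed).

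Of 26 histone lysine methyltransferases, 4 rose and 1 fell in PAAD, 13 rose and 1 fell in TNBC and 1 differed, NSD1, with 0.12 and 0.43 (paired, 11 rose in PAAD and 9 differed). For this and the next lists the shares of all genes called were 12% in PAAD, 18.9% in TNBC and 6.85% for the difference. In the paired fit they were 26.3%, 34.3% and 19.9%. SETD1B and KMT2B, enzymes for lysine 4 of histone H3, were alike, SETD1B up by 0.31 and 0.43 and KMT2B by 0.29 and 0.27. Among 29 lysosome and autophagy genes, 3 rose and 2 fell in PAAD, 1 rose and 11 fell in TNBC, and 3 differed, all higher in PAAD (paired, 7 rose and 5 fell in PAAD, 4 rose in TNBC and 11 differed). These were ATP6V0D1, a proton pump subunit, with 0.04 and -0.22, the protease gene CTSL, with 0.11 and -0.18, and GUSB, with 0.09 and -0.17. The protease gene CTSB was alike, with -0.19 and -0.39, and its difference was called in the paired fit. Iron handling and ferroptosis genes numbered 20, of which 5 rose and 2 fell in PAAD, above the 12% of all genes called there. In TNBC 1 rose and 3 fell, near the 18.9% of all genes called there. The difference was called for 3 (paired, 8 rose in PAAD, 7 rose in TNBC and 8 differed). Beside CHAC1, these were PTGS2, which encodes cyclooxygenase-2 and had 0.21 in PAAD and fell by 0.56 in TNBC, and SLC3A2, the partner of SLC7A11, which rose by 0.46 in PAAD and had 0.16 in TNBC.

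Caspases numbered 9, with 3 decreases and 1 increase in PAAD, 4 decreases and 1 increase in TNBC and 2 differences. CASP1 was alike, down by 0.22 and 0.18, whereas CASP4 fell by 0.30 in PAAD and had -0.06 in TNBC, and CASP10 fell by 0.19 in TNBC and had 0.14 in PAAD. Of 20 cytosolic aminoacyl-tRNA synthetases, 6 rose and 2 fell in PAAD, 5 rose and 2 fell in TNBC and 3 differed (paired, 4 fell in PAAD, 4 fell in TNBC, 8 differed and 5 were alike). MARS1 and GARS1 rose by 0.31 and 0.24 in PAAD and had 0.06 and 0.01 in TNBC, and FARSB fell by 0.29 in PAAD and had 0.02 in TNBC. WARS1 was alike, up by 0.29 and 0.26, and so was RARS1, down by 0.23 and 0.26.

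The paired fit moved further calls. It called AKR1C3, HMGCS1, SQLE, PSAT1, KRT4, KRT16, S100A9, SLC3A2 and NSD1 in both lines in the same direction with sizes that differed, and HSPB8, GMNN, ISG20, CTSL and PTGS2 in opposite directions. Besides those given above, differences were lost in alternatives for CASP4 in 15 of 23, GUSB in 11, HSPA8, DNAJB6, COX8A, RPL36A and SLC3A2 in 10, ISG20 and NSD1 in 8, CTSL in 7, TIPARP in 6, GARS1 and CDC6 in 5, MARS1, CASP10 and ATP6V0D1 in 4, FARSB and COX7A2 in 2 and KRT16 in 1.

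Finally, 13 genes that the study chose on these samples for their change in 4 lines were compared, so their direction is not independent evidence. In PAAD 11 rose and 2 fell, in TNBC 8 rose and 1 fell, 6 differed (46.2%, 5 higher in PAAD) and 4 were alike: SESN2, SLC30A1, RAD54L and ESPL1. The antioxidant enzyme gene TXNRD1 rose by 0.65 and 0.28, a difference that was called, whereas NQO1 (0.26 and 0.11) and the mitotic kinesin gene KIF20A (-0.38 and -0.14) were called in PAAD with a difference not called. The paired fit called NQO1 and KIF20A in TNBC too (adjusted p = 0.00552 and 0.0038), as well as their differences (adjusted p = 0.0083 and 0.00272). With it 11 of the 13 genes rose and 2 fell in TNBC, and 9 differed.

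**Figure D5:**
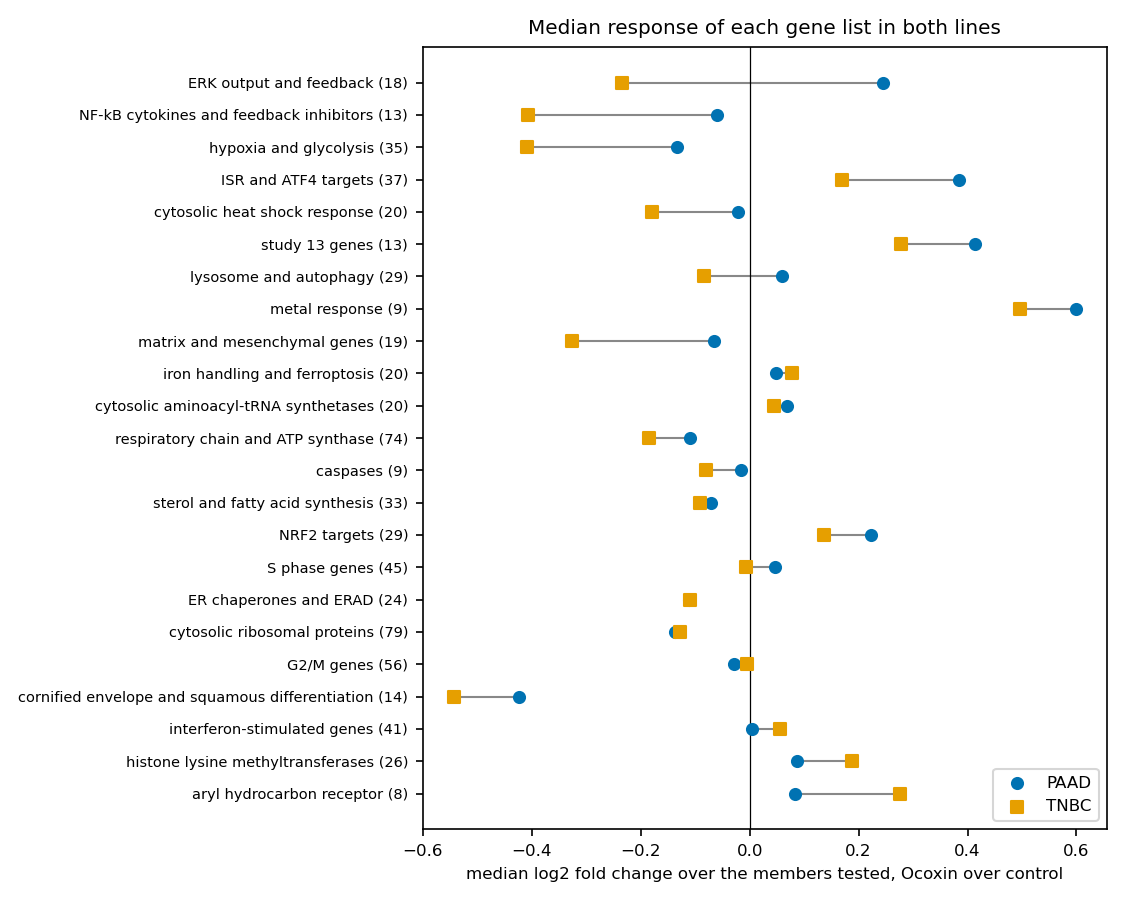
Median log2 fold change of Ocoxin over control for each of the 23 gene lists in PAAD (circles) and TNBC (squares), with the number of members tested in parentheses, ordered by the median difference. The ERK list lies on opposite sides of 0, with 0.24 and -0.23, and the metal response list lies farthest to the right in both lines, with 0.60 and 0.50.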

How the data were processed

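The deposited table holds whole-number counts per gene (58051 Ensembl identifiers, 56948 with a symbol), made by the authors with fastp, STAR on hg38, picard and featureCounts 2.0.3. Both reads of a pair were counted, strand was not used although the kit keeps it, and primary alignments of multimapping reads were kept, so paralogs and antisense genes are uncertain. The 37 mitochondrial genes held 0 counts. Genes passing filterByExpr (minimum count 10) in each line's 6 libraries were tested: 15333, of 17280 passing in PAAD and 17352 in TNBC. edgeR 4.0.16 (R 4.3.3) was run on the 12 libraries with TMM scaling, a quasi-likelihood test of each response and of their difference (PAAD minus TNBC), and Benjamini-Hochberg adjustment at 0.05, where the study used DESeq2. SEs are from the fit, and 95% intervals belong to the difference. The counting depth limits precision as given by these errors.

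Members and lists were chosen with earlier results of these data known. Named were, among genes with at least 1 CPM in each line, the leading alike, opposite, unequal and one-line genes, the 13 genes of the study, and up to 3 differing and 2 alike members of each of the 23 lists. For the leading alike genes, control and Ocoxin libraries also had to be without overlap in both lines. FOSL1, EPHA2, SPRY2, CCND1, ATF4, ALDH1L2, LDHA, EGLN3, VEGFA, NFKBIA, TNFAIP3 and CYP1B1 are list members named after their values were seen. Some genes that the rule names are not reported here.

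Pairing by replicate number was checked by correlating deviations from group means. Same-number correlations were 0.249 to 0.594 over 10361 genes with log2 CPM above 3, but 0.0365 to 0.281 over all 15333, so the minimum of 0.1 for every pair was met in the former only. Over the 10361 genes, replicates 1 and 2 of unlike number gave 0.127 and 0.181 in PAAD, against 0.25 and 0.372 for like numbers. In TNBC they gave 0.229 and 0.297, against 0.249 and 0.3, so the correlations do not show a pairing of numbers 1 and 2 there. The labels do not say what a number marks. The test was tried on simulated data. Alternatives were DESeq2 1.42.0, limma 3.58.1 (voom), other scalings, filters and libraries left out.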

Additional observations from a re-analysis of the deposited data

Results flagged for a closer look

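The responses of both lines differed by the test of the difference itself for 1050 of the 15333 genes tested, and for 71 of the 110 genes named by rule, of which 70 are listed (edgeR's quasi-likelihood test, Benjamini-Hochberg adjustment). All values below are log2 differences, PAAD minus TNBC. A positive value means a higher signed log2 fold change in PAAD and not always a larger response there. BNIP3, for example, had 0.20 in PAAD and -2.14 in TNBC. A negative value can likewise stand for a decrease in PAAD, as for CLDN8 with -1.85 in PAAD and 0.06 in TNBC. 

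The log2 fold change was higher in PAAD by 4.66 for TCF19, 2.33 for BNIP3, 2.28 for MT1G, 2.23 for CXCL8, 1.99 for LIF, 1.95 for ARTN, 1.89 for PTPRR, 1.89 for CXCL1, 1.80 for NDRG1, 1.57 for SLCO4A1, 1.56 for ADM and 1.52 for HLA-F. Smaller positive differences were 1.41 for PPP1R3G, 1.29 for PLAUR, 1.29 for SERPINB7, 1.20 for MT1F, 1.17 for CHAC1, 1.17 for ASNS, 1.17 for SLC16A3, 1.11 for PSAT1, 0.99 for OSGIN1, 0.93 for HSPB8, 0.87 for DUSP4 and 0.84 for ADM2. Differences under 0.8 were 0.79 for PHGDH, 0.78 for PTGS2, 0.71 for S100A9, 0.69 for FOS, 0.67 for DUSP5, 0.60 for TGFBI, 0.55 for TRIB3, 0.52 for ISG20, 0.37 for TXNRD1, 0.35 for ITGA5, 0.33 for CASP10, 0.31 for COX7A2 and 0.31 for TIPARP. The smallest positive ones were 0.30 for COX8A, 0.30 for SLC3A2, 0.29 for CDC6, 0.29 for CTSL, 0.27 for GUSB, 0.26 for ATP6V0D1, 0.25 for MARS1, 0.24 for DNAJB6, 0.23 for GARS1, 0.21 for HSPA8 and 0.21 for P4HB.

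The log2 fold change was higher in TNBC, giving negative values, with -2.50 for CYP1A1, -1.91 for CLDN8, -1.87 for VSNL1, -1.69 for ZMYND12, -1.50 for KRT4, -1.30 for PIGR, -1.23 for RHOV, -1.11 for FAM171B and -1.01 for NRARP. Smaller negative differences were -0.85 for RPL36A, -0.66 for SLC39A10, -0.59 for KRT16, -0.49 for HMGCS1, -0.47 for GMNN, -0.45 for EPHX1 and -0.42 for AKR1C3. The smallest were -0.33 for SEL1L, -0.31 for NSD1, -0.31 for FARSB, -0.30 for AHR, -0.29 for SQLE and -0.24 for CASP4.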

How the results depend on the processing

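With the replicate block, called the paired fit above, the counts rose to 4030 genes in PAAD, 5254 in TNBC, 3046 for the difference, 1306 alike and 458 opposite. At an adjusted p under 0.01 they fell to 775, 1345, 428, 164 and 36. Requiring a difference of at least 1.5-fold left 363 genes. Leaving out replicate 3 of all groups, chosen after seeing the data, gave 886 alike and 175 opposite genes. Leaving out 1 library at a time gave 1054 to 1978 genes in PAAD, 1736 to 3429 in TNBC, 663 to 1204 for the difference, 297 to 627 alike and 62 to 113 opposite. The PAAD count was 1107 and 1054 without PAAD Ocoxin replicates 1 and 2, the latter also giving 663 differences, and these gave 72 and 62 opposite genes. The TNBC count was 1736 without TNBC control replicate 2 and 1864 and 1885 without TNBC Ocoxin replicates 1 and 2. The alike count was 329 without PAAD control replicate 1, 313 and 299 without PAAD Ocoxin replicates 1 and 2, and 330, 297 and 329 without TNBC control replicate 2 and TNBC Ocoxin replicates 1 and 2. The cause was not tested, beyond fewer samples in these fits. DESeq2 gave 2269, 3327, 1470, 651 and 156 genes in the same order. The other scalings, filters, limma-voom, halved counts, the length trend and the added COAD (colon adenocarcinoma) libraries stayed within 1.5 times of each count. Of the 71 named genes called for the difference, 47 were called in every alternative that tested them. That was 23 alternatives, except for TCF19, which was tested in 22. Of the 39 not called, 31 were called in none. No named value that passed the test changed sign, whereas values near 0 that did not pass did, among them the differences of SLC7A11, CSRP1-AS1, TMEM45A, VGLL1, WARS1, JPT1, MYC, KMT2B and PI3. Medians of small lists differed in sign where they lay near 0, as for ER chaperones, S phase, G2/M, interferon-stimulated and squamous genes. Depth and 3 libraries a group limit calls of small differences.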

Other observations

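Some genes outside the naming rule are given because their values are large or belong to another cell type's markers, and all were chosen after their values were seen. SEMA5B, a semaphorin, had a mean of 0.828 CPM in PAAD controls and 0.108 CPM with Ocoxin, and rose from 83.6 to 119 CPM in TNBC, with a log2 difference of -3.44. HEYL, a target of Notch, fell from 0.904 to 0.182 CPM in PAAD and rose from 0.123 to 0.652 CPM in TNBC. CHP2, a calcium-binding protein, fell from 3.35 to 1.26 CPM in PAAD and rose from 0.278 to 0.929 CPM in TNBC, and its libraries did not overlap in either line.

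CCN4, a matricellular protein, fell in TNBC from 0.486 to 0.017 CPM and was at 0.610 and 0.553 CPM in PAAD. The metallothionein MT1M rose in both lines, from 2.15 to 8.09 CPM in PAAD and from 0.661 to 3.71 CPM in TNBC, with a difference of -0.57 that was not called (edgeR adjusted p = 0.362). MMP7, the protease matrilysin, fell from 36.9 to 15.4 CPM in PAAD and was at 71.8 and 66.9 CPM in TNBC. CDH5, the endothelial cadherin, rose from 64.2 to 101 CPM in PAAD and lay at 0.729 and 0.539 CPM in TNBC. Its part in the other PAAD results was not tested.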
